A study of Homo sapiens with 49 samples.

Results

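H3K4me3 regions found in T-47D cells and not in Ishikawa cells were described here. T-47D is a line of human breast ductal carcinoma, and Ishikawa is a line of human endometrial adenocarcinoma. Both lines respond to estrogen, and the study asked how promoters and enhancers shape that response. The regions were chosen by the H3K4me3 peak lists themselves. A peak of the T-47D list made under vehicle (DMSO) was taken when it was below 2000 bp wide, lay on chromosomes 1 to 22 or X, overlapped the T-47D list made under 17β-estradiol (E2) by 1 bp, and overlapped neither Ishikawa H3K4me3 list. This gave 3548 T-47D-only regions of 30774 peaks, or 11.5% of the list. A region with an annotated transcription start within 250 bp was called a start-site region and any other a distal region, which gave 1016 start-site and 2532 distal T-47D-only regions. The comparison set was the 20630 common regions, which met the same limits on width and chromosome but overlapped both Ishikawa lists. H3K4me3 chose the regions, so its values are a description and were not tested.

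Cells of both lines had been kept for 5 days in hormone-depleted media and then received 10 nM E2 or DMSO, for 8 h before ChIP of histone marks and for 1 h before ChIP of proteins. DMSO groups thus lacked added hormone, and E2 and DMSO groups shared the depletion. SIN3A was mapped in stripped and full media instead. Only T-47D RNA polymerase II (Pol2) had more than 1 library, with 2 under DMSO and 2 under E2. No source used here says that these came from separate cultures, so p-values measure only the spread between libraries, which may be technical. Each other list came from 1 library, and its shares carry exact 95% binomial intervals that cover counting error only. The lists state no sequencing depth. The 4 H3K4me3 lists held 29081 to 31901 peaks, and the Pol2 lists held 39371 and 21291 peaks under DMSO and 46282 and 23433 under E2, so replicate 2 was the shorter list in both treatments.

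H3K4me3 is laid down at the first nucleosomes of transcribed genes and is used as a mark of active promoters. Most promoters that carry it lie in CpG islands, stretches where the CpG dinucleotide is not depleted, and are marked in nearly every cell type. Promoters of tissue-restricted genes more often lie outside CpG islands. Weak H3K4me3 away from start sites is also seen at active enhancers. Luminal breast cells are defined by transcription factors such as GATA3, FOXA1, ESR1 and ELF5, and endometrial cells by Mullerian duct factors such as PAX8, EMX2 and the HOXA genes.

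Sequences in or beside 6 T-47D-only regions are printed here to show their CpG content, with each CpG in capitals. They are GRCh37 sequence, 5′ to 3′. The first 2 are the 250 bases upstream of a start site, on the strand of the gene, for start-site regions with high Pol2 enrichment whose window held no annotated exon. HOXC-AS3, an antisense RNA of the HOXC cluster, is at chr12:54378109-54378358 on the minus strand. MSX2, a homeobox factor gene, is at chr5:174151335-174151584 on the plus strand. These windows held 11 and 17 CpGs. Both reach outside their regions, which span chr12:54377694-54378261 and chr5:174151556-174153485. Most of the MSX2 window lies before its region, so these counts are not those of the regions.
HOXC-AS3: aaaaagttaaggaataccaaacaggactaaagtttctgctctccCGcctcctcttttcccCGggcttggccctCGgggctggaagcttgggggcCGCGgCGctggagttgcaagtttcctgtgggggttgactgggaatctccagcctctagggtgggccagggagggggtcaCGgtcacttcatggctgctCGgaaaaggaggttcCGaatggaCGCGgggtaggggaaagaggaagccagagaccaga
MSX2: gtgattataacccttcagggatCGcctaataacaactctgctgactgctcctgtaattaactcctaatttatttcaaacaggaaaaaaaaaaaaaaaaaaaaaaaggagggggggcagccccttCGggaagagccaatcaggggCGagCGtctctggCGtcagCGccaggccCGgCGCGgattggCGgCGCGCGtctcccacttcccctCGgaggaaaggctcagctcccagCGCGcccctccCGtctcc

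The other 4 are the 300 bases at the centre of distal regions, on the plus strand. The first 3 had high Pol2 enrichment in all libraries. They lie beside H4C5, a histone H4 gene, at chr6:26204288-26204587, in an intron of GATA3 at chr10:8104783-8105082, and upstream of EDN1, the gene of endothelin-1, at chr6:12288545-12288844. The last is in an intron of GREB1, an estrogen-induced growth regulator, at chr2:11697530-11697829, and had Pol2 only in the E2 libraries. They held 9, 5, 11 and 4 CpGs.
H4C5: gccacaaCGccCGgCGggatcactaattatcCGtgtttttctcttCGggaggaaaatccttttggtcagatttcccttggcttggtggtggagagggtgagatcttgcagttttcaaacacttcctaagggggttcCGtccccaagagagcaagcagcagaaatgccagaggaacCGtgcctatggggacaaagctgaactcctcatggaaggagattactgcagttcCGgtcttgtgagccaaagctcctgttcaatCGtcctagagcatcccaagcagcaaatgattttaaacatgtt
GATA3 intron: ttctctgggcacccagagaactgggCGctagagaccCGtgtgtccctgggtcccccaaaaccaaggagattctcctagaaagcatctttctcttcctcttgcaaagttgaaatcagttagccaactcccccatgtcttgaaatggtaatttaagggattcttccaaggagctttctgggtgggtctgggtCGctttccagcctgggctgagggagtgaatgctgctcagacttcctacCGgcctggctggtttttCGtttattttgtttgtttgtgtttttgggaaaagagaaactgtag
EDN1 upstream: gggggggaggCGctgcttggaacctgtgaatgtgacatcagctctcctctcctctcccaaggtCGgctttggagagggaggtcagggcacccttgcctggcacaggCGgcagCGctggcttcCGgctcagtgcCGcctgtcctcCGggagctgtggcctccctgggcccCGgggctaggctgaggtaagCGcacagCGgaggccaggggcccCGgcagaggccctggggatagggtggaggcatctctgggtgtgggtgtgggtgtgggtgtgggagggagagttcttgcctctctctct
GREB1 intron: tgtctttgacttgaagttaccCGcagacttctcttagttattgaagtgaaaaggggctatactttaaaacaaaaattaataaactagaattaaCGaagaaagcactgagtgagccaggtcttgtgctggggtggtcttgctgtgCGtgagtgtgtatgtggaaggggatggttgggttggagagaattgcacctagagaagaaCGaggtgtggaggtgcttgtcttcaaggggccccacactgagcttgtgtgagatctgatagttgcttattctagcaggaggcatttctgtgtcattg

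Gene lists were used to check the label of the lines. Of 25 luminal transcription factor genes, 22 had an H3K4me3 peak within 250 bp of a start in both T-47D lists and 18 in both Ishikawa lists. The 5 that had it in T-47D but not in both Ishikawa lists were EHF, ELF5, GATA3, SPDEF and TBX3, and CREB3L1 was the 1 that went the other way. Of 20 endometrial and Mullerian genes, 5 had it in T-47D and 14 in Ishikawa. The 11 found in Ishikawa alone on this count included PAX8, EMX2, HAND2, HOXA9, HOXA10 and HOXA11, and MSX2 and PAX2 were found in T-47D alone. All 20 ribosomal protein genes had it in both lines. Of 38 luminal epithelial genes, 25 had it in each line, and the breast secretory genes TFF1, PIP, SCGB2A2 and ANKRD30A had no T-47D peak at a start. Among these 38, AGR2, GFRA1 and TFF3 were found in T-47D alone and NAT1, SCGB1D2 and SCGB2A1 in Ishikawa alone. Basal and mesenchymal genes had it at 11 of 21 in T-47D and 13 in Ishikawa.

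The T-47D-only regions were narrow and weak. Their median width was 312 bp, from 171 to 1998 bp, and their median H3K4me3 fold enrichment, the ChIP signal over background at the summit, was 8.95 under DMSO and 8.34 under E2. Start-site regions had a median width of 390 bp and distal regions 290.5 bp, whereas common start-site regions had a median of 636 bp and an enrichment of 12.9. Start-site regions made up 28.6% of T-47D-only regions (95% interval 27.2 to 30.2) and 79.6% of common regions (79.1 to 80.2). With a window of 1 kb, 51.1% of T-47D-only regions had a start site. Of the 1016 start-site regions, 759 had a start of a protein-coding gene, 219 had a lncRNA start but no protein-coding one, and 38 had only starts of other kinds. Of the distal regions 65.5% were centred in an intron, 20.7% between genes, 9.32% in a non-coding exon and 4.54% in a coding exon.

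Many T-47D-only regions lay beside an Ishikawa peak rather than far from any. The gap to the nearest Ishikawa H3K4me3 peak was at most 1 kb for 308 start-site (30.3%) and 1003 distal regions (39.6%). It was over 100 kb for 207 start-site (20.4%) and 346 distal regions (13.7%). At the border of the rule, 13 regions lay within 10 bp of an Ishikawa peak. The widest T-47D-only regions were those of NUPR1, 1998 bp at chr16:28548335-28550332, and MSX2, 1930 bp at chr5:174151556-174153485. The narrowest of the 13 wider regions that met the rest of the rule were 2002 bp at P2RY6 and 2167 bp at GREB1. At the start-site limit, 58 start-site regions had their start in the last 50 bp of the window and 56 distal regions had one up to 50 bp outside it.

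A T-47D-only region lay at a start site of 668 of 20090 protein-coding genes, which is 3.33%. Of these genes 305 (45.7%) had no Ishikawa peak at any annotated start, and 363 (54.3%) had one at some start. The share of genes with a start-site T-47D-only region was 32.0% for luminal transcription factors (8 of 25), 28.1% for estrogen-induced genes (9 of 32) and 23.7% for luminal epithelial genes (9 of 38). It was 10.0% for ribosomal protein genes (2 of 20), 8.70% for steroid metabolism genes (2 of 23), 8.33% for prolactin and JAK-STAT5 genes (1 of 12), 5.00% for endometrial genes (1 of 20) and 4.76% for basal and mesenchymal genes (1 of 21). Of the genes found, XBP1, CA12 and ELF5 stand on more than 1 list, which leaves 30 genes. Of the 8 luminal transcription factors 2 had no Ishikawa peak at any start, of the 9 luminal epithelial genes 3 and of the 9 estrogen-induced genes 5, so most of the luminal genes were marked at some start in Ishikawa too. The lists were drawn up with earlier results of these data known. Within a gene or 10 kb of it, T-47D-only regions were present at 14.9% of all protein-coding genes, 72.0% of the luminal factors, 53.1% of the estrogen-induced genes, 47.4% of the luminal epithelial genes, 14.3% of the basal genes, 15% of the endometrial genes and 40.0% of the ribosomal protein genes.

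Among the luminal transcription factors, the genes with start-site regions included GATA3, TFAP2A, XBP1, TBX3, ELF3, ELF5 and EHF. TBX3, a T-box factor of mammary development, had a region of 1618 bp at chr12:115120315-115121932, 716060 bp from the nearest Ishikawa peak. Its Pol2 enrichment was 46.6 and 14.2 in the DMSO libraries and 27.3 and 11.9 in the E2 libraries. ELF5, the factor of the milk-secreting lineage, had a region of 1675 bp at chr11:34534300-34535974, 10491 bp from an Ishikawa peak. Pol2 enrichment there was 38.2 and 20.2 under DMSO and 32.9 and 11.6 under E2. Replicate 1 was the higher in both treatments at both genes. Neither gene had an Ishikawa peak at any start.

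At GATA3, the factor that keeps luminal identity, the start-site region was 312 bp at chr10:8095091-8095402 and lay 158 bp from an Ishikawa peak. Pol2 enrichment there was 57.2 and 49.5 under DMSO and 23.1 and 25.4 under E2, and JUN and TAF1 peaks were also present. An H3K27me3 peak was present under DMSO. Its absence under E2 cannot be read, because the E2 list held 107 peaks against 6305 under DMSO. TFAP2A, encoding AP-2α, had 6 start-site regions between chr6:10409760 and chr6:10420303, all overlapped by Pol2 in at least 3 libraries. EHF, an epithelial ETS factor, had 3, of which 1 had Pol2 in all 4 libraries, 1 in replicate 1 of each treatment and 1 in none. The EHF region with Pol2 in all 4 adjoined an Ishikawa peak, with a gap of 0 bp. The gaps of the others were 7965 and 10093 bp. FOXA1 had common regions at its starts, and 8 T-47D-only regions within 10 kb of the gene.

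Among the luminal epithelial genes the start-site regions were at KRT7, KRT8, MUC1, AGR2, TFF3, GFRA1, CA12, ERBB2 and MLPH. AGR2, a protein disulfide isomerase of secretory epithelium, had a region of 595 bp at chr7:16844106-16844700, with Pol2 enrichment of 16.3 and 14.4 under DMSO and 16 and 11 under E2. TFF3, a trefoil peptide, had one of 374 bp at chr21:43735221-43735594, with Pol2 at 21.7 in DMSO replicate 1, 19.3 and 13.4 under E2, and no peak in DMSO replicate 2. MUC1, an epithelial mucin, had 2 regions, and that of 912 bp at chr1:155161771-155162682 lay 130 bp from an Ishikawa peak, with Pol2 enrichment of 59.8 and 15.9 under DMSO and 18.0 and 16.8 under E2. GFRA1 and MLPH had regions of 254 and 171 bp with no Pol2 peak in any library. Those of AGR2, TFF3 and GFRA1 were 49824, 73438 and 335434 bp from an Ishikawa peak, the others at most 8824 bp.

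The estrogen-induced genes with a start-site region were GREB1, IGFBP4, XBP1, CXCL12, CA12, HSPB8, ADCY9, RERG and OLFM1. IGFBP4, which binds insulin-like growth factors, had a region of 650 bp at chr17:38599240-38599889, with Pol2 at 30.5 in DMSO replicate 1, no peak in DMSO replicate 2, and 15.6 and 13.9 under E2. CXCL12, a chemokine gene, had one of 380 bp at chr10:44880627-44881006, 478530 bp from an Ishikawa peak. Pol2 was present there in replicate 1 of each treatment, at 26.2 under DMSO and 19.7 under E2. In the other lists, MSX2 was the one endometrial gene, SNAI2 the one basal gene, ELF5 the one prolactin gene, AKR1C3 and CYP1B1 the steroid metabolism genes, and RPL3 and RPS2 the ribosomal protein genes. The RPL3 and RPS2 regions lay 346 to 1242 bp from an Ishikawa peak. AKR1C3, which makes androgens and estrogens from weaker precursors, had a region of 187 bp with no peak of any other T-47D target.

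Pol2 overlapped fewer T-47D-only regions than common regions in each library. Of T-47D-only start-site regions, 60.4% and 28.4% had a Pol2 peak in the DMSO libraries and 58.5% and 32.2% in the E2 libraries. The mean under DMSO was 44.4% ± 22.6 (SD, n = 2). For distal regions these shares were 40.2% and 21.6% under DMSO, a mean of 30.9% ± 13.1 (SD, n = 2), and 41.0% and 22.8% under E2. The start-site share exceeded the distal share in all 4 libraries, by 13.5 points on average. It was below the share of common start-site regions in all 4, with a mean difference of -33.4 points and common shares of 62.8% to 93.8%. For distal T-47D-only against common distal regions the difference ran from -29.3 to -4.86 points. Each of these comparisons gave an exact two-sided sign-flip permutation p of 0.13, which is the smallest that 4 libraries allow, and 0.13 after Benjamini-Hochberg adjustment over 5 such comparisons.

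**Figure D1:**
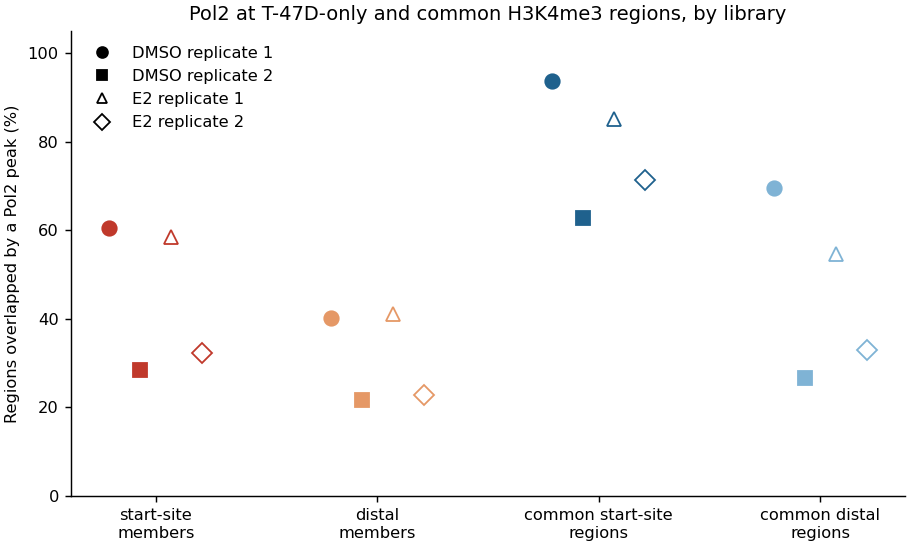
Percent of H3K4me3 regions overlapped by a Pol2 peak (y axis) in each T-47D Pol2 library, for start-site and distal T-47D-only regions (members) and for common regions. Filled symbols are DMSO and open symbols E2 libraries; replicate 1 lies above replicate 2 in every class, and the start-site T-47D-only shares, 28.4% to 60.4%, lie below the common start-site shares, 62.8% to 93.8%.

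T-47D-only regions were narrower, and a narrow region has less room to be overlapped, so the shares were also read by width. Among start-site regions below 300 bp, the mean share over the 4 libraries was 31.4% for 345 T-47D-only regions and 65.2% for 2115 common regions. Among those of 800 bp or more it was 72.8% for 138 T-47D-only and 89.2% for 5658 common regions. Distal T-47D-only regions had a lower mean than common distal regions in the 3 narrower width classes, at 23.9% against 33.1%, 33.4% against 46.7% and 46.4% against 54.8%. Only at 800 bp or more were the means close, with 63.1% for 113 T-47D-only and 62.5% for 417 common regions. Over 1 kb from an Ishikawa peak, Pol2 was more frequent than within 1 kb of one in all 4 libraries, by 12.6 to 20.8 points for distal and 2.61 to 12.6 points for start-site regions. Both gave an exact sign-flip permutation p of 0.13. The share did not keep rising with distance. Over 100 kb from an Ishikawa peak it was 49.3% and 20.3% under DMSO and 45.9% and 24.6% under E2 for start-site regions, each below the 54.2%, 26.6%, 49.7% and 29.9% of those within 1 kb. For distal regions over 100 kb away it was 32.4% and 15.3% under DMSO and 30.6% and 15.9% under E2.

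**Figure D2:**
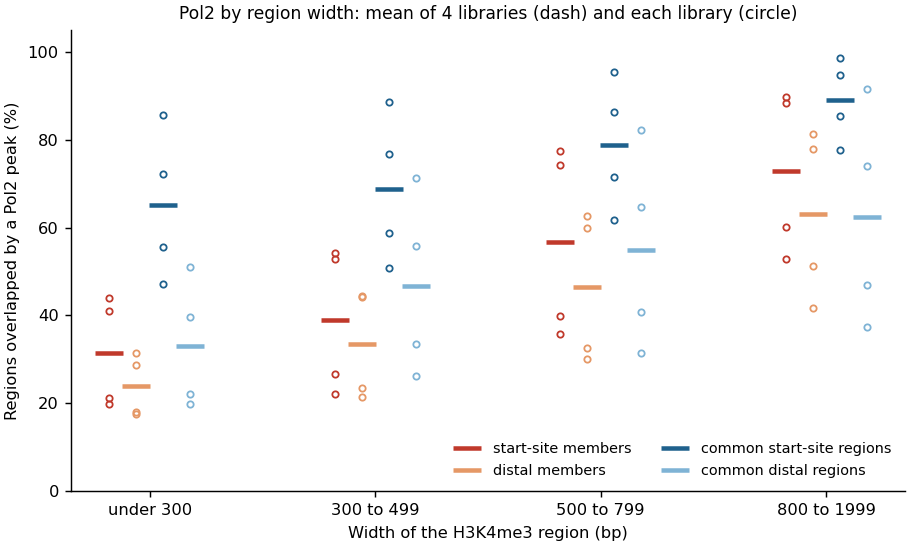
Percent of H3K4me3 regions overlapped by a Pol2 peak (y axis) by width of the region in bp (x axis). Dashes are the mean of the 4 Pol2 libraries and circles the libraries; shares rise with width in each class, and start-site T-47D-only regions stay below common start-site regions in every width class, from 31.4% against 65.2% to 72.8% against 89.2%.

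The overall Pol2 share under E2 and under DMSO differed by less than the replicates did. Pol2 overlapped 46.0% and 23.6% of all T-47D-only regions under DMSO, a mean of 34.8% ± 15.8 (SD, n = 2), and 46.0% and 25.5% under E2, a mean of 35.7% ± 14.5 (SD, n = 2). The difference of 0.930 points gave an exact two-sided permutation p of 1, where the smallest p for 2 against 2 libraries is 0.33. Of the start-site regions 238 (23.4%) had Pol2 in all 4 libraries and 328 (32.3%) in none. Of the distal regions 376 (14.9%) had it in all 4 and 1239 (48.9%) in none.

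The start-site regions with the highest Pol2 enrichment, ranked by the lowest of the 4 libraries, were at RCAN1, HOXC-AS3, PPIEL, GATA3-AS1, MALAT1, CRIP1, MSX2, ITGA9-AS1, H4C3 and GATA3. Those of HOXC-AS3, GATA3-AS1, MALAT1, ITGA9-AS1 and GATA3 lay 158 to 874 bp from an Ishikawa peak. The others lay 1054 bp (CRIP1) to 750663 bp (MSX2) from one. RCAN1, an inhibitor of the phosphatase calcineurin, had a region of 577 bp at chr21:35898664-35899240. Its Pol2 enrichment was 43.9 and 36.7 under DMSO and 45.2 and 37.3 under E2, so the treatments overlapped. CRIP1, a LIM-domain protein gene, had 118 and 24.9 under DMSO and 42.5 and 26.1 under E2, so its DMSO replicates were further apart than its treatments. At MSX2 the values were 113 and 24.7 under DMSO and 52.0 and 26.5 under E2. MALAT1, an abundant nuclear RNA, had a region of 339 bp at chr11:65269030-65269368, with 71.2 and 25.9 under DMSO and 30.3 and 25 under E2.

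The 6 highest distal regions lay beside H4C5, beside HOXC10, in GATA3 and at EDN1, which held 3 of them. The H4C5 region was 41 bp from an Ishikawa peak, and the EDN1 regions 449, 729 and 2724 bp. The region beside HOXC10 was 1179 bp from one and that in GATA3 8399 bp. The H4C5 region of 200 bp at chr6:26204338-26204537 had Pol2 enrichment of 84.7 and 46.4 under DMSO and 38.8 and 49.2 under E2. That of GATA3, 969 bp at chr10:8104449-8105417, had 57.2 and 49.5 under DMSO and 28.7 and 25.4 under E2. The 3 EDN1 regions, at chr6:12288058-12289331, chr6:12291559-12293199 and chr6:12293554-12293775, each had 82.2 and 41.4 under DMSO and 24.6 in E2 replicate 2. In each DMSO library 1 broad Pol2 peak lay over all 3, as it did over both GATA3 regions named here, so neighbouring regions are not independent. Enrichment also differed between libraries as a whole. Over the 12921 regions with Pol2 in every library, the median log2 enrichment was 5.90 and 3.73 under DMSO and 4.82 and 4.06 under E2. DMSO replicate 1 was thus high as a whole, and its height in single regions cannot be told apart from that.

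PRLR, the gene of the prolactin receptor, held 15 T-47D-only regions, more than any other protein-coding gene. All 15 were distal and lay in introns of the gene at chr5:35048861-35230589, with centres 1.86 to 32.6 kb from its start. They were 177 to 915 bp wide, and 6 were over 10 kb from an Ishikawa peak. Pol2 overlapped all 15 in each of the 4 libraries. Its enrichment ran from 6.11 to 34.6 (median 14.4) and from 12 to 20.1 (median 17.2) under DMSO, and from 9.94 to 29.9 (median 21.4) and from 9.40 to 17.4 (median 15.5) under E2. The treatments overlapped. These values came from 11 and 8 distinct Pol2 peaks under DMSO and 13 and 8 under E2. JUN overlapped 5 of the 15 under DMSO and 3 under E2, and H3K4me1 overlapped 1. PRLR also had a common region at a start site, so the T-47D-only regions extended into a gene whose promoter was marked in both lines.

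**Figure D3:**
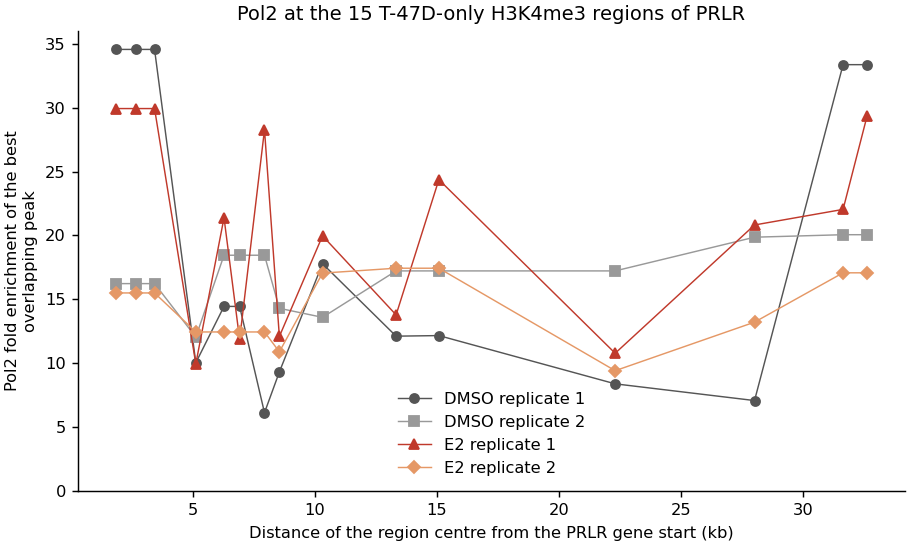
Pol2 fold enrichment (y axis) of the best overlapping peak at each of the 15 T-47D-only regions of PRLR, against the distance in kb of the region's centre from the gene's start (x axis). Symbols are the libraries and the lines only join them; the libraries interleave, with values of 6.11 to 34.6 under DMSO and 9.40 to 29.9 under E2.

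The next genes were GSE1, with 11 regions, and HOXC6 and the readthrough gene ENSG00000273049, with 11 each, followed by HOXC10 with 10. The HOXC genes lie together, and the same regions are counted for all of them. At GSE1, the gene of a coiled-coil protein, 507 kb long, all 11 were distal, 212 to 952 bp wide, and 10 carried H3K4me1 under DMSO. JUN overlapped all 11 under DMSO and 8 under E2, and Pol2 overlapped 8 in each DMSO library. Of 15 PRLR regions, by contrast, 1 carried H3K4me1. In the HOXC cluster, which sets position along the body axis, none of the 11 carried H3K4me1 and Pol2 overlapped 8 and 6 under DMSO and 10 and 6 under E2. In all, 2987 protein-coding genes had at least 1 T-47D-only region within 10 kb, 65 had at least 5 and 6 had at least 10.

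Some T-47D-only regions had a Pol2 peak called under E2 and not under DMSO. In 42 regions a Pol2 peak was present in both E2 and neither DMSO library, which is 1.18% (95% interval 0.854 to 1.60). Over all 30769 T-47D H3K4me3 DMSO regions on these chromosomes the share was 0.267%, and over the regions that are not T-47D-only it was 0.147% (0.105 to 0.200). T-47D-only regions thus made up 42 of the 82 regions with this pattern. Common regions mostly had Pol2 under DMSO already and could not show it. Among regions with no Pol2 peak in either DMSO library, the share was 2.31% of 1817 T-47D-only regions (1.67 to 3.11) and 0.823% of 4860 others (0.589 to 1.12). The others are mixed, and their common regions had lower shares, 0.199% of 1007 start-site and 0.477% of 1258 distal ones. T-47D-only regions also had to overlap the E2 H3K4me3 list, which not all of the others did. The opposite pattern, Pol2 in both DMSO and neither E2 library, was present in 18 T-47D-only regions, or 0.507% (0.301 to 0.801), against 0.231% of all regions. Among regions with no Pol2 peak under E2 it was 0.967% of T-47D-only regions (0.574 to 1.52) and 0.706% of the others (0.529 to 0.922), so these intervals overlap. With no DMSO peak allowed within 1 kb of the region, 22 of the 42 were left, and with no E2 peak within 1 kb, 5 of the 18. Leaving out a library changes the counts, to between 53 and 239 for Pol2 under E2 alone and between 39 and 256 for the opposite. Without DMSO replicate 1 the E2 pattern was less frequent in T-47D-only regions (5.86%) than in all regions (9.05%), and without DMSO replicate 2 the opposite pattern was too (7.22% against 10.5%).

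Of the 42 regions with Pol2 only under E2, 35 were distal and 7 were start-site regions. They had 36 nearest protein-coding genes, 5 of which were on the list of 32 estrogen-induced genes: GREB1, IGFBP4, FKBP4, HSPB8 and SIAH2. That is 13.9%, beside 20 of the 2623 nearest genes of all T-47D-only regions (0.762%), and the list was drawn up with earlier results known. They were overlapped by 41 distinct Pol2 peaks of E2 replicate 1, with a median enrichment of 15.3 (5.42 to 39.5), and their median in E2 replicate 2 was 9.92 (5.06 to 22.4). At GREB1, the start-site region of 378 bp at chr2:11682811-11683188 had 16.7 and 19.0 in the E2 libraries. The distal regions at chr2:11697571-11697789 and chr2:11683792-11684272 had 20.0 and 19.2, and 20.6 and 19.0. Under DMSO, Pol2 was called in neighbouring regions of GREB1. The start-site region at chr2:11680016-11680406 also had 16.7 and 19.0 under E2, but a DMSO replicate 1 peak at 10.5. The region over the width limit at chr2:11680563-11682729 had the same E2 values and a DMSO replicate 1 peak at 10.1. Another start-site region of GREB1, at chr2:11696612-11696948, had Pol2 in all 4 libraries, at 11.9 and 7.90 under DMSO and 29.2 and 19.2 under E2. It lies beside the distal region at chr2:11697571-11697789 and has the same value in E2 replicate 2.

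Other start-site regions with Pol2 only under E2 were at FHL2, HSPB8, LINC00511, the lncRNA genes ENSG00000228830 and ENSG00000238117, and DEGS2, which had the lowest E2 values of the 7, at 9.58 and 6.51. FHL2, a LIM-domain coactivator, had 19.5 and 12 in the E2 libraries at chr2:106012842-106013466. HSPB8, a small heat shock protein gene, had 29.2 and 11.8 at chr12:119618159-119619040. The distal regions next in rank after GREB1 were in SGK3, a kinase gene, with 30.4 and 18.9 at chr8:67626056-67626280, and in THSD4, with 39.5 and 16.4 at chr15:71409312-71409542. In all of these, replicate 1 was the higher E2 library except at the GREB1 start site. The leading regions with Pol2 only under DMSO lay beside H4C11, a histone H4 gene, with 23.4 and 10.4, in ZBTB7B with 15.9 and 8.87, and in SPPL3 with 8.86 and 10.8. Of the 42 regions, JUN overlapped 16 under DMSO (38.1%, 95% interval 23.6 to 54.4), beside 37% of all T-47D-only regions, and 4 under E2 (9.52%, 2.66 to 22.6), beside 28.2%. TAF1 overlapped 0 under DMSO and 2 under E2 (4.76%), beside 2.45% and 3.35%, and H3K4me1 2 (4.76%) and 0, beside 6.74% and 2.76%.

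Where Pol2 was present in all 4 libraries, its enrichment could be compared between treatments with limma. It was fitted to 12921 regions, 614 of them T-47D-only. No region was called at an adjusted p below 0.05 in either direction, 0% of all and 0 of the 614, and 31 T-47D-only and 179 of all regions had an unadjusted p below 0.05. The median log2 change of T-47D-only regions was 0.20, with 0.05 for start-site and 0.27 for distal regions, beside 0.02 for all regions tested. Without DMSO replicate 1 it was -0.30 and without DMSO replicate 2 it was 0.64, so its sign rested on single libraries. These fits rested on 1 DMSO library and on other sets of regions, with 640 and 780 T-47D-only ones. Their calls are not reported here. A region had to have Pol2 in each library to enter, so those with Pol2 only under E2 had no part in it. The lowest p in the upward direction belonged to RUNX1, a transcription factor gene, with Pol2 at 27.7 and 8.30 under DMSO and 37.5 and 19.8 under E2, a log2 change of 1.22 (SE 0.30, limma adjusted p = 1.0). The next were a distal and a start-site region of IFITM10 under 1 Pol2 peak, at 21.5 and 7.31 under DMSO and 35.0 and 16.9 under E2. The lowest p in the downward direction belonged to a region beside H4C5, with 84.7 and 46.4 under DMSO and 14.8 and 6.73 under E2. Its DMSO values are the same as those of the H4C5 region at chr6:26204338-26204537, which had 38.8 and 49.2 under E2. A region at RPL10A was also among the 3 lowest.

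JUN, a subunit of AP-1, was the most frequent T-47D protein other than Pol2, and under DMSO its shares lay between those of the Pol2 libraries. Its peaks overlapped 49.9% of T-47D-only start-site regions under DMSO (95% interval 46.8 to 53.0) and 46.7% under E2 (43.5 to 49.8). In distal regions the shares were 31.9% (30.1 to 33.7) and 20.9% (19.3 to 22.5). In common start-site regions they were 82.9% and 87.5%, and in common distal regions 52.8% and 56.1%. The E2 list thus covered less of the T-47D-only regions and more of the common regions than the DMSO list. With 1 library per treatment, this difference between classes was not tested. Beside an Ishikawa peak, within 1 kb, JUN overlapped 20.4% of distal regions under DMSO, and 39.4% of those farther away. Over 100 kb away it was 28.6% (23.9 to 33.7).

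**Figure D4:**
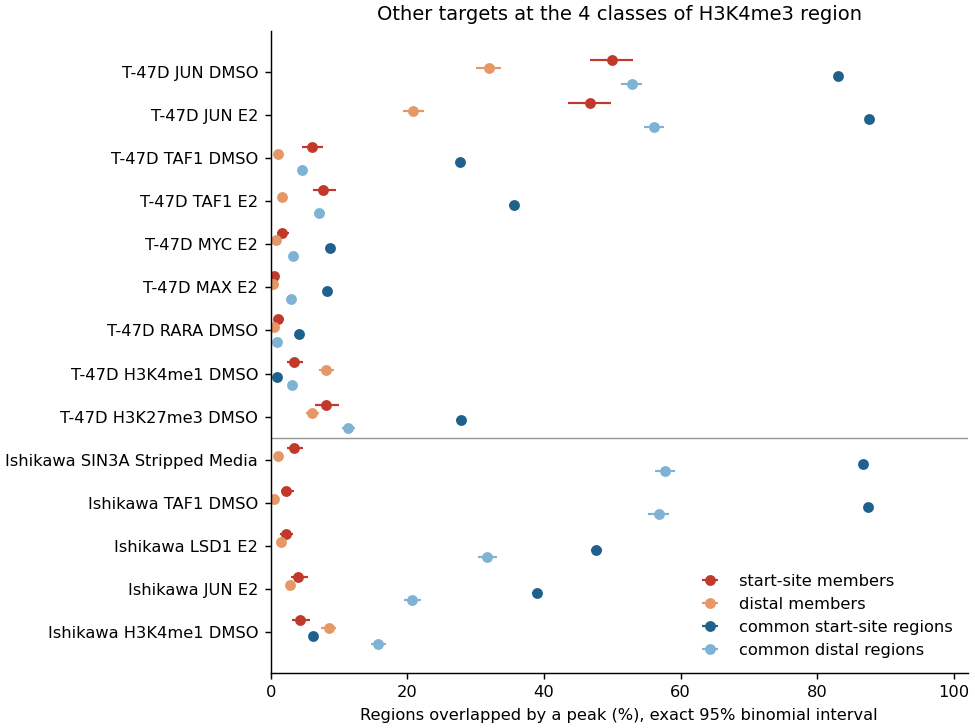
Percent of H3K4me3 regions overlapped by a peak of other targets (x axis, with exact 95% binomial intervals) in T-47D (above the line) and Ishikawa (below it), for T-47D-only regions (members) and common regions. Common start-site regions reach 87.5% for T-47D JUN and 87.4% for Ishikawa TAF1, whereas the start-site T-47D-only regions reach 49.9% and 2.26%. The classes were chosen by Ishikawa H3K4me3, so their contrast in the Ishikawa lists is partly set by the rule.

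TAF1, the largest subunit of the general factor TFIID, had a peak in 6.0% of T-47D-only start-site regions under DMSO (4.62 to 7.65) and 7.68% under E2 (6.12 to 9.49). In common start-site regions the shares were 27.7% and 35.6%. In distal T-47D-only regions they were 1.03% and 1.62%. MYC under E2 overlapped 1.67% of start-site regions, RARA under DMSO 1.08% and MAX under E2 0.492%, each below its share of common start-site regions (8.61%, 4.05% and 8.27%). H3K4me1, the mark of enhancers, went the other way. It overlapped 8.10% of T-47D-only distal regions under DMSO (7.06 to 9.23) and 3.14% of common distal regions (2.63 to 3.71), but 4.36% of the distal T-47D-only regions with H3K4me3 enrichment above the median. At start sites it overlapped 3.35% (2.33 to 4.65) of T-47D-only start-site regions against 0.871% (0.734 to 1.02). H3K27me3, the Polycomb mark, overlapped 8.07% of T-47D-only start-site regions and 27.9% of common ones under DMSO. Its E2 list held 107 peaks against 6305 under DMSO. That list overlapped 0 of 1016 T-47D-only and 0 of 16426 common start-site regions, so the DMSO overlaps rest on 1 list. T-47D LSD1 and SIN3A lists held only 42 to 649 peaks and overlapped at most 14 T-47D-only regions of either kind.

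Proteins mapped in Ishikawa were rare at T-47D-only regions. The rule chose these regions for the absence of Ishikawa H3K4me3 and common regions for its presence. The contrast between the classes in other Ishikawa lists is thus partly set by the rule. TAF1 of Ishikawa overlapped 2.26% of the start-site regions under DMSO (1.44 to 3.38) and 0.434% of the distal regions (0.217 to 0.776), whereas it overlapped 87.4% of common start-site and 56.8% of common distal regions. SIN3A in stripped media overlapped 3.35% and 1.03%, against 86.7% and 57.7% of common regions. JUN under E2 overlapped 4.04% and 2.76%, and LSD1 under E2 2.17% and 1.46%, against 38.9% and 47.7% of common start-site regions. H3K4me1 was more frequent. Its Ishikawa DMSO list overlapped 4.33% (3.16 to 5.77) of start-site and 8.45% (7.40 to 9.60) of distal T-47D-only regions, against 6.14% and 15.7% of common regions. The Ishikawa share of distal regions stood beside a T-47D share of 8.10%, with 28411 peaks in the Ishikawa and 6408 in the T-47D list.

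Of 10 T-47D targets, 430 T-47D-only regions (12.1%) were overlapped by at least 3, and 1389 (39.1%) by none. For start-site regions the share with at least 3 was 16.1%, against 51.5% of common start-site regions. The start-site regions of LINC02913 and ST6GAL1 had the most targets, with 6 each. Another 9 had 5, among them those of H2AC12, ITGA9-AS1 and H4C3. ST6GAL1 encodes a sialyltransferase, and its region of 731 bp at chr3:186692851-186693581 carried H3K4me1 at an enrichment of 8.43 and H3K27me3 at 14.9 under DMSO, with Pol2 at 15.5 and 8.52 under DMSO and 9.74 and 5.83 under E2. The 2 distal regions with the most, 7 targets each, were in introns of GSE1. Another 17 distal regions had 5, among them 2 more in GSE1 and 1 in FOXA1. At chr16:85492885-85493603 in GSE1, Pol2 enrichment was 27.5 and 6.88 under DMSO and 20.3 and 11.4 under E2, JUN 22.3 and 25.3, and H3K4me1 5.80.

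The regions with the highest H3K4me3 were found with and without Pol2. At start sites the 5 highest regions, by the lower of the 2 treatments, were at PPIEL, AUTS2, MLKL, ZNF253 and LINC02328. PPIEL, a pseudogene of a peptidylprolyl isomerase, had H3K4me3 at 25 and 21.5 under DMSO and E2, and Pol2 at 71.8 and 29.7 under DMSO. AUTS2, a neurodevelopmental gene, had H3K4me3 at 20.3 and 18.9 but no peak of any of the 10 other targets, and neither had LINC02328 at 18.9 and 17.8. The AUTS2 region lay 168 bp from an Ishikawa peak, and the others of the 5 lay 3824 to 400326 bp from one. MLKL, the effector of necroptosis, had 20.1 and 18.4, with Pol2 at 29.8 in DMSO replicate 1 and 13.5 and 7.99 under E2. The 5 highest distal regions were in GRPR, a peptide receptor gene, at 20.1 and 21.2, nearest to ZFP42 on chromosome 4 at 18.7 and 20.8, and in NALF1, GREB1 and FOXA1. Those of NALF1 and FOXA1 lay 184 and 1128 bp from an Ishikawa peak, and the others at least 44259 bp. The FOXA1 region of 1202 bp at chr14:38061197-38062398 had H3K4me3 at 16.3 and 17.2 and Pol2 at 71.0 and 32.2 under DMSO and 31.7 and 14.4 under E2.

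Sequence was not used by the rule. The CpG ratio, the observed over the expected number of CpGs in the 500 bp at the centre, had a median of 0.501 in start-site T-47D-only regions (95% interval of the median 0.481 to 0.523) and 0.331 in distal ones. In common regions the medians were 0.719 and 0.615. A ratio of at least 0.6, a usual bound for CpG islands, was reached by 37.2% of T-47D-only start-site regions and 73.4% of common ones. The GC content went the same way, with medians of 55.6% and 49.4% in T-47D-only and 61.4% and 58.0% in common start-site and distal regions. Start-site regions over 100 kb from an Ishikawa peak had a median ratio of 0.563, and those within 1 kb 0.433.

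**Figure D5:**
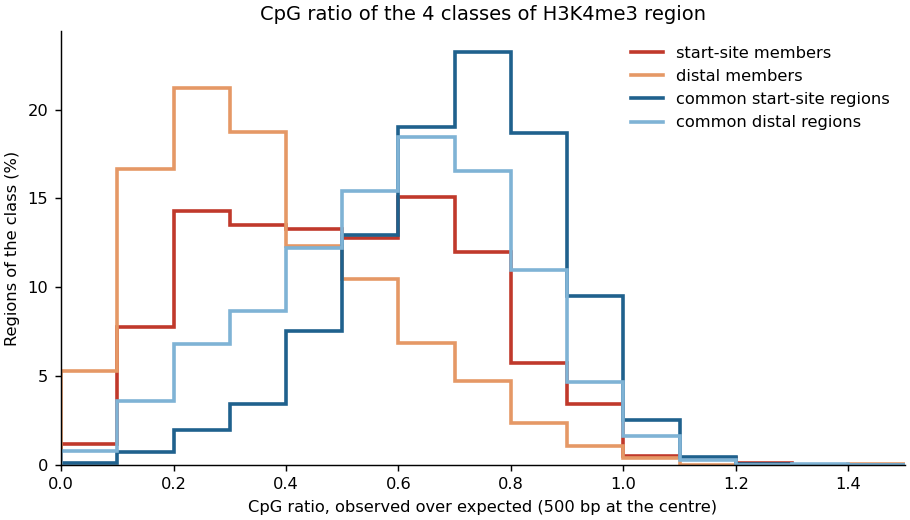
Distribution of the CpG ratio (x axis, observed over expected in the 500 bp at a region's centre) as percent of the regions of a class (y axis), for T-47D-only regions (members) and common regions. The last bin holds all higher values; medians are 0.501 and 0.331 for start-site and distal T-47D-only regions and 0.719 and 0.615 for common ones.

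Motifs were searched on both strands of the same 500 bp, and matches are a description of the letters. GGGCGG, bound by SP and KLF factors, was present in 41.2% of T-47D-only start-site regions and 21.8% of distal regions, beside 67.9% and 54.0% of common regions and 57.8% of all 30769 regions. CCGGAAG, the ETS motif, and GCCNNNGGC, the AP-2 motif, were also less frequent than in common regions, at 6.89% and 27.1% of start-site regions against 12.3% and 40.7%. AT-rich motifs were more frequent. TATAAA, the TATA box, was present in 14.2% (12.1 to 16.5) of start-site and 18.2% of distal regions, against 7.32% (6.92 to 7.73) and 11.8% of common and 9.82% of all regions. The GATA motif, read as AGATAA, was present in 15.3% and 19.1%, against 10.3% and 13.5% of common and 12.1% of all regions. TGTTTAC, a FOX motif, was present in 5.61% and 8.25%, against 4.10% and 5.45%, with 4.99% of all regions. TGANTCA, the AP-1 motif, was present in 10.1% and 13.2%, against 6.75% and 9.54%, with 8.55% of all. These motifs go with base composition, and their part apart from it was not tested. The palindromic estrogen response element was found in 6 T-47D-only regions and 25 of all regions. CACGTG, the E-box, was present in 9.55% and 7.46%, and ACCGGTT, the GRHL motif, in 1.97% and 1.42%, beside 10.2% and 1.55% of all regions. Of the 6 printed sequences, that upstream of EDN1 held 1 AP-2 and 1 ETS match, and the others held none.

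The T-47D-only regions were spread unevenly over chromosomes. Of T-47D-only and common regions together, 14.7% were T-47D-only. The share was 22.2% on chromosome 21 (95% interval 17.5 to 27.6), 20.4% on chromosome 11 (18.4 to 22.6) and 20.4% on chromosome 20 (17.4 to 23.6). It was 8.05% on chromosome 18 (5.41 to 11.4), 9.82% on chromosome 4 (7.93 to 12), 9.96% on chromosome 2 (8.46 to 11.6) and 10.2% on chromosome 19 (8.72 to 11.7). Chromosome 2 still held GREB1 and FHL2, and chromosome 21 TFF3, RCAN1 and RUNX1.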

How the data were processed

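The data were 45 peak lists and 4 inputs from ChIP-seq of T-47D and Ishikawa cells, of which 44 lists were used. Per the sources, the authors aligned reads to hg19 with Bowtie 1.1.2 and called peaks per library against input with MACS2 2.1.0.20140616. Each deposited list gives the fold enrichment of a peak, a ratio of ChIP over background, and its −log10 q-value. Reads were not analysed here, so depth is unknown and an absent peak is only one not called.

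Peaks were overlapped by at least 1 bp with start sites and genes of GENCODE release 44 lifted to GRCh37. Where several peaks overlapped a region, the highest fold enrichment was kept. CpG ratio and motifs were read from the 500 bp at a region's centre. A CpG ratio is the number of CpGs over that given by the counts of C and G. Intervals are exact (Clopper-Pearson) at 95% and cover counting error only. Neighbouring regions are not independent.

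Samples were grouped by their labels. Pol2 shares were compared over libraries, with exact two-sided permutation tests between treatments and exact sign-flip permutation tests within libraries. Log2 fold enrichment, centred on each library's median, was compared in regions with Pol2 in all 4 libraries by limma 3.58.1 in R 4.3.3 with Benjamini-Hochberg adjustment at 0.05, after the fit had been tested on simulated data. Python 3.11.15, pandas 2.3.3, scipy 1.17.1 and pysam 0.24.0 were used.

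The regions, gene lists and named genes were chosen with earlier results of these data known. Named were listed genes with a T-47D-only region at a start, the 10 start-site and 6 distal regions with the highest Pol2 enrichment (lowest of 4 libraries), up to 6 start-site and 4 distal regions with Pol2 only under E2 and 3 with the reverse, the 4 of each kind with the most T-47D targets, the 5 of each kind with the highest H3K4me3, the 2 on either side of the width limit, the 5 genes with the most regions and the 3 regions with the lowest p in each direction. Sequence windows that held annotated exon or lay on a chromosome not printed here were passed over for the next in rank, 5 in all. Of the sequences and genes this gave, 2 windows and 2 genes are not reported here. Alternatives covered overlap, width, distance to Ishikawa peaks, start-site window, enrichment, normalization and each Pol2 library in turn.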

Additional observations from a re-analysis of the deposited data

How the results depend on the processing

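Of 84 alternatives computed for 15 results, 56 stayed within the tolerance, which was 1 SD between replicates for Pol2 shares, the 95% interval for other shares and the CpG ratio, 1.5 times for counts, and the sign and side of the threshold for tested differences. That tolerance is wide for Pol2. The start-site Pol2 share under DMSO, 44.4%, was 24.2% with the summit inside the region and 28.4% or 60.4% from either library alone, and listed genes ran from 20 to 33. Regions with no Ishikawa peak within 1 kb numbered 2237, and 31.7% of them were start-site regions. Regions above the median H3K4me3 enrichment numbered 1763, with a start-site share of 34.9%, a TAF1 share of 7.95% at start sites, an H3K4me1 share of 4.36% in distal regions and a median CpG ratio of 0.541 at start sites. A start-site window of 1 kb gave a start-site share of 51.1% and a CpG ratio of 0.448, and starts of protein-coding genes alone gave a share of 21.4%. When the summit of the other peak had to lie inside the region, the distal shares fell to 14.4% for Pol2 under DMSO, 17.3% for JUN and 6.52% for H3K4me1, and the start-site share of TAF1 to 3.94%. With 500 bp at each centre the distal JUN share was 34.2%.

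The E2 minus DMSO difference in Pol2 share ran from -10.3 to 12.1 points when 1 library was left out, and turned negative without DMSO replicate 2 (-10.3) and without E2 replicate 1 (-9.32). The limma median log2 change of T-47D-only regions ran from -0.30 to 0.64 in the same way. The absence of called regions did not hold in every such fit. Regions with Pol2 only under E2 numbered 53 to 239, and those with Pol2 only under DMSO 39 to 256. With no peak of the other treatment within 1 kb, these counts were 22 and 5. The alternatives for both counts were chosen after seeing the data. With the replicate block, the paired differences in share had a mean of 0.930 points and limma again called 0 regions (336 at an unadjusted p below 0.05). The correlation of same-numbered deviations between treatments was 0.257 over the 12921 regions with Pol2 in all 4 libraries. The labels tie the numbers to no shared culture. The cause of these changes was not tested. Replicate 2 of each treatment had the fewer peaks.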
